A study of Mus musculus with 21 samples.

Results

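Pcsk1, Vim, Lyn, Blk and Gzma are 5 genes whose transcripts were higher in thymocytes of mice with an HDAC7-VP16 transgene than in wild-type thymocytes. They were picked for that difference, so their values in VP16 against wild-type arrays 4 to 6 are given as a description with no test. They are 5 of the 2121 genes that could be named on the arrays, among 28921 probe sets tested. Each was read from the 1 probe set named for it, on the Affymetrix Mouse Gene 1.0 ST array, a chip that reads a transcript with probes along its length. A further probe set of these genes among the 26800 unnamed ones could not be seen. What the choice did not use is how the same genes stood in the knockout, OT-2, peptide-injected and deltaP arrays and in wild-type arrays 1 to 3, and those comparisons were tested.

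Histone deacetylase 7 (HDAC7) is a class IIa deacetylase that sits on DNA-binding factors such as MEF2 in resting thymocytes and represses their target genes. Signalling through the T cell receptor leads to its phosphorylation and export from the nucleus. Fusion to VP16, the activation domain of a herpesvirus protein, gives a form that activates where HDAC7 would repress. Lyn and Blk are Src family tyrosine kinases known from B cells, where they act next to the antigen receptor. Lyn also activates inhibitory receptors, and Blk is found in some thymocytes and gamma-delta T cells. Gzma encodes granzyme A, a serine protease of cytotoxic granules. Pcsk1 encodes proprotein convertase 1/3, a protease of endocrine and neural cells that cuts prohormones into active peptides. Vim encodes vimentin, the intermediate filament protein of mesenchymal cells and lymphocytes.

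RNA came from CD4 CD8 double-positive thymocytes isolated by flow sorting from C57 Bl/6 mice aged 3 to 6 weeks, and each sample went on its own array, 21 in all. Wild-type mice gave 6 arrays with no treatment. The other groups, with 3 arrays each, were HDAC7 knockout, HDAC7-VP16 transgenic and OT-2 TCR transgenic mice, all untreated, and 2 injected groups. OT-2 is a transgenic T cell receptor for an ovalbumin peptide presented by MHC class II, and the peptide-injected OT-2 mice received its agonist peptide in the peritoneum 3 hours before harvest. The deltaP group combined the OT-2 receptor, an HDAC7 mutant transgene named deltaP, and the same injection. In its genotype label only OT-2 appears, and its titles give the transgene. The name deltaP is used in the field for HDAC7 without its phosphorylation sites, which stays in the nucleus. The sources used here do not give the promoters of the transgenes, the number of founder lines, the extent of the knockout or whether mice were pooled. The design text calls the replicates biological, without naming animals, and p-values measure the spread between these samples.

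The values are log2 RMA signals, so a difference of 1 is a doubling of signal. The number of arrays limits the precision. The median signal of an array, with control rows left out, was 6.01 to 6.26. Blk, Lyn and Pcsk1 had group means near or below that level in several groups other than VP16. The lowest were 5.58 for Blk in wild-type 4 to 6, 5.28 for Lyn in knockout and 5.56 for Pcsk1 in deltaP. Small differences in these genes are therefore between weak signals. The deposited columns fall into blocks that differ in number of decimals, in distribution or in both. They are wild-type arrays 1 to 3 with knockout and peptide-injected OT-2, wild-type arrays 4 to 6 with VP16, OT-2 alone, and deltaP alone. Only knockout, VP16 and peptide-injected OT-2 share a block with wild-type arrays. In any comparison across blocks, the block and the group cannot be told apart. Arrays of a group other than wild type correlated at 0.988 to 0.997 over probe sets, and wild-type arrays, which lie in different blocks, at 0.969 to 0.997. The largest share of identical values in a pair of arrays was 7.76% in OT-2. It was 0.0691% in VP16, which has the same 6 decimals. The reason was not tested, so how far the OT-2 arrays are independent is not known. The defining transcripts of the double-positive stage were high in every group, with Rag1 between 12.2 and 13.8, Cd4 between 10.9 and 12.1 and Cd8b1 between 12.16 and 13.03. They were not level between groups: in peptide-injected OT-2 against wild-type arrays 1 to 3, Rag1 fell by 0.84 (limma adjusted p = 0.00891), Cd4 by 0.68 (limma adjusted p = 0.0390) and Cd8b1 by 0.48 (limma adjusted p = 0.0247). Hdac7 itself was 11.42, 11.01 and 11.48 on wild-type arrays 1 to 3 and 10.98, 10.94 and 10.97 on the knockout arrays, a difference of -0.34 ± 0.14 (SE; limma adjusted p = 0.664). The sources used here do not say where its probes lie relative to the deleted part, so this value does not check the knockout. In VP16 it was 0.44 ± 0.07 above wild-type arrays 4 to 6 (limma adjusted p = 0.0353), with no overlap, but with any 1 array dropped the call held once in 6 (limma adjusted p from 0.0269 to 0.148).

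Since the genes were high together in VP16, the sequences just upstream of their start sites are shown first. RefSeq promoter windows (GRCm38.p6) were matched for 3 of the 5 genes, Pcsk1, Vim and Gzma. The lines give the 200 bases before the start site, 5′ to 3′ on the strand of the gene. The Pcsk1 line is chr13:75089657-75089856 on the plus strand, inside the annotated span of the gene, which has a more upstream start. The Vim line is chr2:13574111-13574310 on the plus strand, and the Gzma line is chr13:113100982-113101181 on the minus strand.
Pcsk1: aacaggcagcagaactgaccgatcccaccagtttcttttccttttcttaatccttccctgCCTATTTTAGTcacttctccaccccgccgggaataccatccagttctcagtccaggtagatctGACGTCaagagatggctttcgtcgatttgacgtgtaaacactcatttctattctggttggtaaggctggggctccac
Vim: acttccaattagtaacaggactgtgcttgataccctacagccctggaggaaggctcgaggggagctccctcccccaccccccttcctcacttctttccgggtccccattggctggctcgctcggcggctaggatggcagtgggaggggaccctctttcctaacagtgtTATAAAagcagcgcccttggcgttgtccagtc
Gzma: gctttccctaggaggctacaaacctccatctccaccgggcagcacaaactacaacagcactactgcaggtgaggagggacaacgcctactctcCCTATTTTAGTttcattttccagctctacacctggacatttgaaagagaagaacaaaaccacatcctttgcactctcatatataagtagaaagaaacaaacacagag
Capitals in the Pcsk1 line mark CCTATTTTAGT and GACGTC, the centre of the cyclic AMP response element. In the Gzma line they mark CCTATTTTAGT, and in the Vim line TATAAA, the box bound by the TATA-binding protein.

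The stretch CCTATTTTAGT of 11 bases was the longest that any pair of the 3 windows had in common on the same or the opposite strand. It began at position -140 from the start of Pcsk1 and -107 from that of Gzma, and 6 of 32851 windows of the same 300 bases (250 before to 50 after the start) held it on either strand, or 0.0183%. It was chosen for being shared, so its rarity is no test. GACGTC, searched on both strands, began at -77 in Pcsk1 and was in 4.40% of all windows. TATAAA began at -32 in Vim and was in 13.6% of windows. The MEF2 consensus, searched by its usual degenerate form on both strands, had no match in the 3 windows and was in 3.19% of all windows. The RUNX motif TGTGGT matched on the opposite strand at -50 in Gzma and was in 16.8%. The E-box CANNTG, which overlapped none of these other matches, was found in Gzma at -135, -79 and -71 and in 72.3% of windows. These are matches of letters, not sites of binding.

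Among the kinases, Lyn (probe set 10503098, chr4:3678068-3791612) was 6.04, 6.80 and 6.88 on wild-type arrays 4 to 6 and 8.30, 8.42 and 8.23 on the VP16 arrays. The difference was 1.74 ± 0.20 (SE, n = 3 and 3), and every VP16 array lay at least 0.91 above every array of the other groups. The other groups were spread out as well. It was 5.77, 5.45 and 5.75 on wild-type arrays 1 to 3, 5.98, 5.18 and 4.67 on the knockout arrays and 6.82, 6.80 and 6.46 on the OT-2 arrays. Peptide-injected OT-2 arrays gave 6.24, 6.76 and 7.31, and deltaP arrays gave 5.96, 5.60 and 5.95. In order of their means the groups ran from VP16 through peptide-injected OT-2, OT-2, wild-type 4 to 6, deltaP and wild-type 1 to 3 to knockout. Below VP16 the arrays of neighbours overlapped, except that wild-type 4 to 6 lay wholly above deltaP.

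Blk (probe set 10420758, chr14:63372837-63417187) gave the smallest of the 5 VP16 differences. Wild-type arrays 4 to 6 read 5.46, 5.46 and 5.81, VP16 arrays 6.72, 6.46 and 6.58, and the difference was 1.01 ± 0.12 (SE, n = 3 and 3). VP16 did not hold the highest Blk values of the series. Peptide-injected OT-2 arrays were 6.50, 6.52 and 7.95, so that its replicate 3 stood above all VP16 arrays, and its mean was above that of VP16 only through this array. Wild-type arrays 1 to 3 were tight at 6.25, 6.29 and 6.20, and knockout arrays lay under all of them at 5.89, 6.13 and 6.03. OT-2 arrays read 6.07, 6.39 and 6.49, and deltaP arrays 6.04, 6.09 and 6.05. The lowest group was wild-type 4 to 6, whose arrays lay under those of every other group, so the VP16 difference was taken from the lowest controls. Against all 6 wild-type arrays it was 0.67.

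Of the proteases, Gzma (probe set 10412211, chr13:113093824-113100981) was 8.94, 8.79 and 8.93 on wild-type arrays 4 to 6 and 10.39, 10.22 and 10.23 on the VP16 arrays, a difference of 1.39 ± 0.08 (SE, n = 3 and 3). Knockout arrays were 8.66, 10.21 and 8.86, so that knockout replicate 2 came within 0.011 of the lowest VP16 array. Wild-type arrays 1 to 3 read 7.53, 8.11 and 7.35, below every knockout array. OT-2 arrays were 8.74, 8.56 and 8.504, peptide-injected OT-2 arrays 7.95, 8.72 and 9.11, and deltaP arrays 7.70, 7.83 and 8.04. The gene lies within the annotated span of Cdc20b. The wild-type sets themselves stood 1.23 apart for this gene, the most of the 5, and no array of one set reached the other.

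Pcsk1 (probe set 10406229, chr13:75089420-75134861) had the largest VP16 difference of the 5. It was 6.32, 6.59 and 6.38 on wild-type arrays 4 to 6 and 8.96, 9.53 and 9.63 on the VP16 arrays, a difference of 2.94 ± 0.17 (SE, n = 3 and 3). No other array came nearer than 1.55 to the VP16 arrays. Wild-type arrays 1 to 3 ranged from 5.75 to 6.56, with 6.21 between, and the knockout arrays were 5.99, 7.40 and 7.22. OT-2 arrays read 6.13, 6.13 and 6.70, peptide-injected OT-2 arrays 6.17, 5.55 and 6.46, and deltaP arrays 5.50, 5.43 and 5.74. Below VP16, each group overlapped the next in the order of means, from knockout down to deltaP. The wild-type sets differed by 0.26, the least of the 5 genes.

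Vim (probe set 10469322, chr2:13574311-13582826), the filament gene, was 10.60, 10.69 and 10.68 on wild-type arrays 4 to 6 and 12.79, 12.51 and 12.63 on the VP16 arrays. The difference was 1.99 ± 0.08 (SE, n = 3 and 3), and the VP16 arrays were at least 1.6 above all others. Wild-type arrays 1 to 3 were the lowest of the series at 10.10, 9.84 and 9.73. Knockout arrays read 10.41, 10.73 and 10.63, and OT-2 arrays 10.50, 10.50 and 10.72. Peptide-injected OT-2 arrays read 10.58, 10.41 and 10.91, and deltaP arrays 10.64, 10.47 and 10.56. Apart from VP16 and wild-type 1 to 3, the group means lay between 10.56 and 10.66, and neighbours in their order overlapped. Wild-type arrays 4 to 6 were 0.76 above arrays 1 to 3 and inside that common range.

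**Figure D1:**
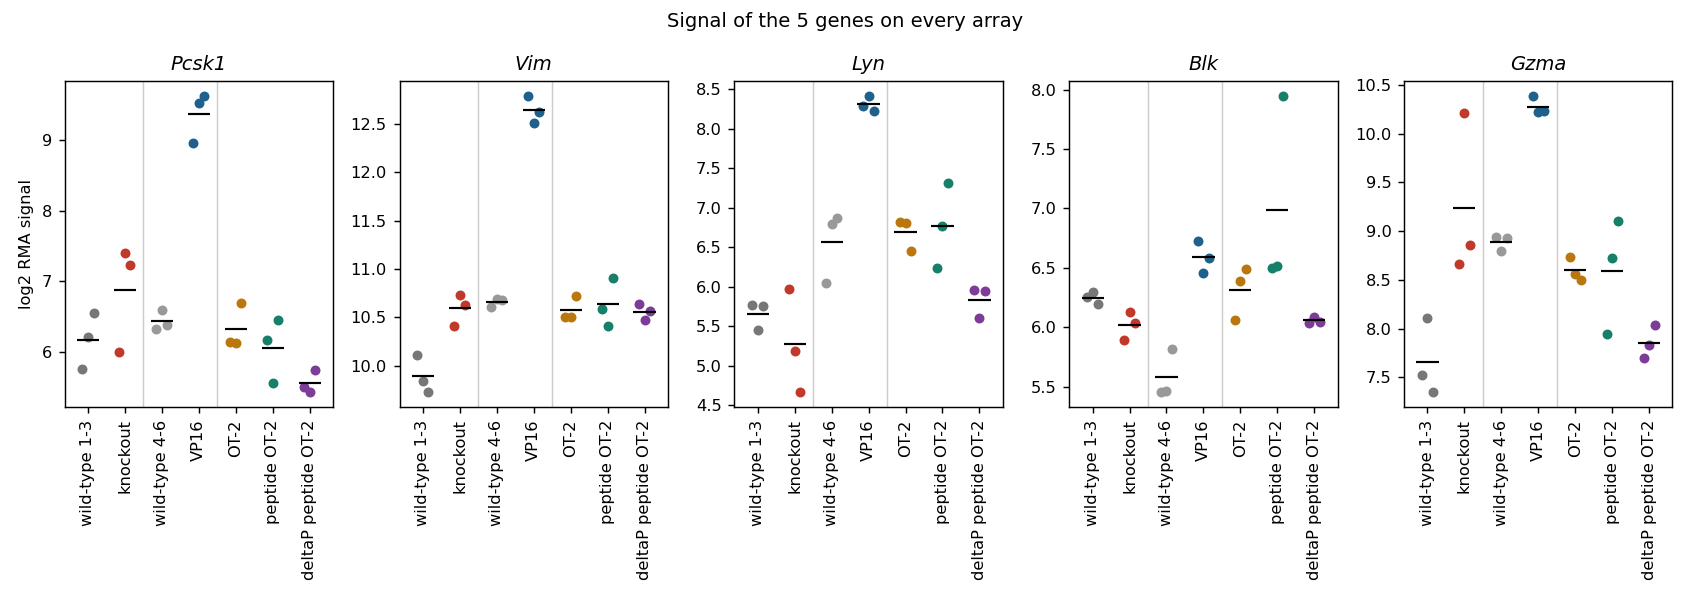
Log2 RMA signal of the 5 genes on each of the 21 arrays, 1 point per array with a bar at the group mean. The 2 gray lines part wild-type 1 to 3 with knockout, wild-type 4 to 6 with VP16, and the OT-2 groups, of which peptide OT-2 belongs to the block of wild-type 1 to 3; the VP16 points are on top for all genes but Blk, where 1 peptide-injected array at 7.95 is.

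All 5 genes were apart from wild-type arrays 4 to 6 in VP16, which follows from how they were picked. Over all probe sets, 11.9% were apart and higher in that contrast, and 0.692% passed an adjusted limma p of 0.05 as higher. The median of the 5 differences was 1.74, beside 0.02 over all probe sets. Ranked by the VP16 difference among named genes, Pcsk1 was 2, Vim 3, Lyn 4, Gzma 13 and Blk 32. Rank 1 was 5830411N06Rik, at 3.21, which was not chosen. Just outside the chosen genes stood Trgv3, a T cell receptor gamma segment, at 1.72 under Lyn, and St6gal1, a sialyltransferase, at 1.00 under Blk. Just above Blk stood the unchosen Sdc4, a syndecan, at 1.02. The choice was therefore not a cut of a ranked list, and genes with larger differences than Blk or Gzma were not taken. The authors' deposited table gave folds over wild type of 7.68 for Pcsk1, 3.96 for Vim, 3.35 for Lyn, 2.62 for Gzma and 2.01 for Blk, each with a q value of 0%.

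Loss of HDAC7 was compared with wild-type arrays 1 to 3, which shared no array with the choice of genes. In the fit without pairing, none of the 5 genes passed an adjusted limma p of 0.05, where 0.802% of all probe sets did in either direction. Vim and Gzma, 2 of the 5, had an unadjusted limma p under 0.05, as had 2014 of 28921 probe sets. Of the 5, 2 were apart and higher (5.1% of probe sets were) and 1 was apart and lower (6.58% were). The median difference was 0.70, beside -0.02 over all probe sets.

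Gzma differed by 1.58 ± 0.38 (SE; 95% interval 0.70 to 2.46, limma adjusted p = 0.187), and it was higher in each same-numbered pair of arrays, by 1.13, 2.10 and 1.51. Without knockout replicate 2, its highest knockout array, the difference was 1.10 (limma adjusted p = 0.177). Knockout and wild-type arrays of the same number deviated together over probe sets. Fitted in replicate blocks, the difference in Gzma had an SE of 0.18 and a limma adjusted p of 0.00994, so the gene passed in that fit. Vim differed by 0.70 ± 0.14 (SE; 95% interval 0.39 to 1.01, limma adjusted p = 0.0773), with every knockout array above every wild-type array and pair differences of 0.31, 0.89 and 0.90. Its adjusted limma p lay near the threshold and passed it after quantile normalization of all arrays, at 0.0347, and over brighter probe sets alone, at 0.0379, but not with the block, at 0.0904. The authors' deposited table gave a q value of 3.01% for Vim with a fold of 1.62, and 3.36% for Gzma with a fold of 2.99.

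The 3 other genes did not pass. In replicate blocks the limma adjusted p was 0.180 for Pcsk1 (SE 0.18), 0.697 for Lyn and 0.586 for Blk. Pcsk1 differed by 0.70 ± 0.36 (SE; 95% interval -0.12 to 1.53, limma adjusted p = 0.820), with pair differences of 0.24, 1.19 and 0.67. Its knockout replicate 1, at 5.99, lay inside the wild-type range, and without that array the difference was 1.14 (limma adjusted p = 0.152). The kinases were on the other side of 0. Lyn differed by -0.38 ± 0.29 (SE; 95% interval -1.04 to 0.28, limma adjusted p = 0.929), with pair differences of 0.21, -0.27 and -1.08. Blk differed by -0.23 ± 0.11 (SE; 95% interval -0.47 to 0.01, limma adjusted p = 0.752) and was lower in all 3 pairs, by -0.36, -0.17 and -0.17. So knockout and VP16 values of Pcsk1, Vim and Gzma lay on the same side of their wild-type controls, and those of Lyn and Blk did not. No test of the difference between the contrasts was made, since the VP16 side was fixed by the choice of genes.

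**Figure D2:**
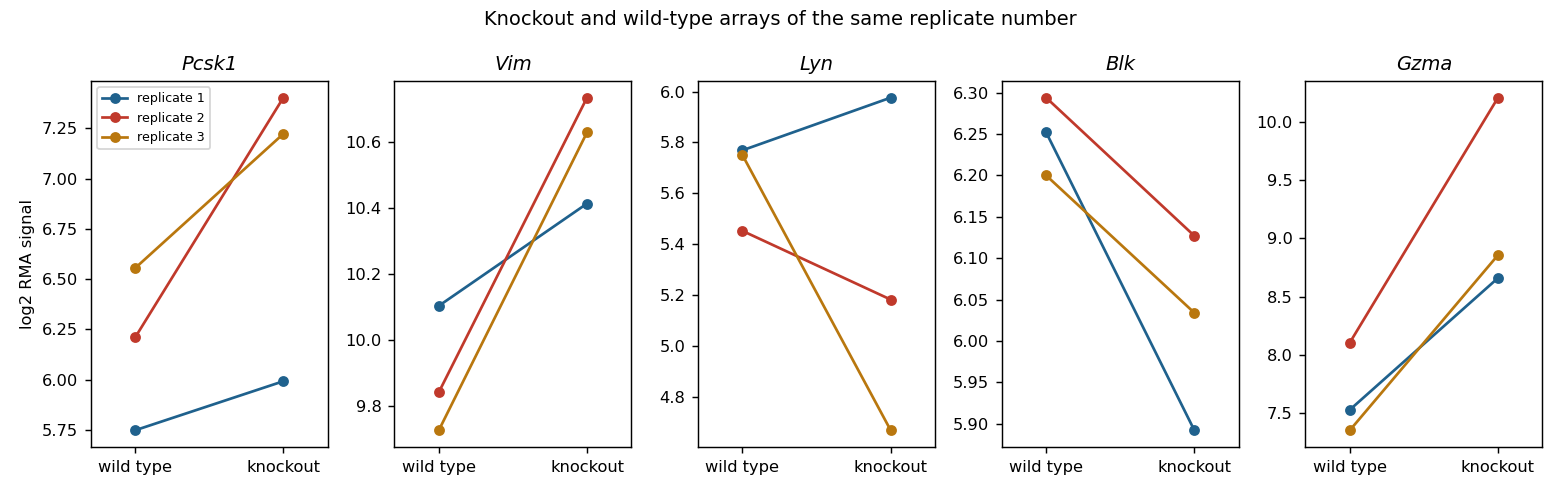
Log2 RMA signal of the 5 genes on wild-type arrays 1 to 3 and knockout arrays 1 to 3, with lines joining arrays of the same replicate number; each panel has its own axis. Lines rise in 3 of 3 pairs for Pcsk1, Vim and Gzma and descend in 3 of 3 for Blk, and for Lyn they go both ways.

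The OT-2 receptor and its peptide were examined next. Peptide-injected OT-2 shares a block with wild-type arrays 1 to 3, although the design text does not pair them. There Vim rose by 0.74 ± 0.16 (SE; 95% interval 0.39 to 1.10, limma adjusted p = 0.0324) and Lyn by 1.11 ± 0.24 (SE; 95% interval 0.55 to 1.68, limma adjusted p = 0.0381), each with all 3 arrays above the wild-type arrays. In the same fit 8 of 10 double-positive markers fell and 8 of 14 single-positive markers rose. Vim and Lyn were 2 of 5 genes, where 3.49% of all probe sets passed as higher, and 3 of 5 were apart and higher, where 14.5% of probe sets were. The median difference of the 5 was 0.74, beside 0.01 over all probe sets. Blk was the further gene apart, at 0.74 ± 0.35 (SE; limma adjusted p = 0.266), and without peptide-injected replicate 3 its difference was 0.26. Gzma differed by 0.93 ± 0.30 (SE; limma adjusted p = 0.115) with overlap, and Pcsk1 by -0.11 ± 0.26 (SE; limma adjusted p = 0.859).

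The calls of Vim and Lyn were thin. Vim passed without wild-type replicate 1 (limma adjusted p = 0.0407). It did not pass without peptide-injected replicate 1 (0.104), 2 (0.0534) or 3 (0.0697), or without wild-type replicate 2 (0.0770) or 3 (0.111), as limma adjusted p. Lyn passed without peptide-injected replicate 1 (limma adjusted p = 0.0273). It did not pass without peptide-injected replicate 2 (0.121) or 3 (0.0574), or without wild-type replicate 1 (0.0789), 2 (0.0944) or 3 (0.106), as limma adjusted p. Replicate 3 of the peptide-injected arrays held the highest value of its group for all 5 genes. With all 6 wild-type arrays as controls, neither gene passed, with 0.36 for Vim (limma adjusted p = 0.400) and 0.66 for Lyn (limma adjusted p = 0.302).

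Untreated OT-2 arrays, which the design text uses for positive selection in the thymus, were set against wild-type arrays 1 to 3 across blocks. Lyn rose by 1.04 ± 0.14 (SE; limma adjusted p = 0.00341), Gzma by 0.94 ± 0.19 (SE; limma adjusted p = 0.0121) and Vim by 0.68 ± 0.12 (SE; limma adjusted p = 0.00810), with all 3 OT-2 arrays above the wild-type arrays for each. These 3 of 5 stood beside 14.8% of all probe sets that passed as higher and 24.7% that were apart and higher, so a large share of the chip moved in this contrast. Pcsk1 differed by 0.15 ± 0.23 (SE; limma adjusted p = 0.662) and Blk by 0.07 ± 0.12 (SE; limma adjusted p = 0.707). Lyn and Vim passed in all 6 fits that left out 1 array, and Gzma in 5, missing without OT-2 replicate 1 (limma adjusted p = 0.0524). The design text uses all 6 wild-type arrays as the control here. With them, Lyn was at 0.58 (limma adjusted p = 0.371), Gzma at 0.33 (limma adjusted p = 0.709) and Vim at 0.30 (limma adjusted p = 0.570), and none passed. For these 3 genes wild-type arrays 4 to 6 were themselves 0.91, 1.23 and 0.76 above arrays 1 to 3, close to the OT-2 differences. In the authors' deposited table for OT-2 over wild type, Blk alone of the 5 had a q value under 5%, at 1.77% with a fold of 1.36.

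Injection of the peptide, the design text's case of negative selection, was compared directly with untreated OT-2, again across blocks. None of the 5 genes passed, where 19.5% of all probe sets did. None had an unadjusted limma p under 0.05, where 10775 of 28921 probe sets did. Blk was apart and higher, as were 20.8% of probe sets, at 0.67 ± 0.37 (SE; 95% interval -0.20 to 1.55, limma adjusted p = 0.228). The intervals for the others were -0.85 to 0.33 for Pcsk1, -0.26 to 0.38 for Vim, -0.52 to 0.67 for Lyn and -0.63 to 0.61 for Gzma. Those for Gzma, Lyn and Pcsk1 leave room for sizeable changes, and a p above the threshold does not show that the peptide left them as they were. In the same fit, genes reported as targets of HDAC7 or MEF2 in T cells had 6 of 7 named members rise and none fall, with Nr4a1, an orphan nuclear receptor, at 3.30 ± 0.12 (SE; limma adjusted p = 0.000300). Their median was 1.87, beside 0.06 for the 5 genes. These targets could be named only because the authors had listed them as changed in these samples. The gap between the medians therefore follows in part from that choice.

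The deltaP transgene was compared with no deltaP in peptide-injected OT-2 mice, across blocks. All 5 genes had lower means with deltaP, while 10061 of 28921 probe sets had higher ones. The median difference of the 5 was -0.74, beside -0.10 over all probe sets. Lyn fell by 0.94 ± 0.24 (SE; 95% interval -1.49 to -0.38, limma adjusted p = 0.0377) and was 1 of 5 genes to pass, where 12.9% of probe sets passed as lower. It was apart and lower together with Blk, as were 30.4% of probe sets. Blk differed by -0.93 ± 0.34 (SE; limma adjusted p = 0.0947), Gzma by -0.74 ± 0.26 (SE; limma adjusted p = 0.0836), Pcsk1 by -0.50 ± 0.21 (SE; limma adjusted p = 0.131) and Vim by -0.08 ± 0.13 (SE; limma adjusted p = 0.703).

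Peptide-injected replicate 3 weighed on these values too. Without it, Lyn was at -0.66 (limma adjusted p = 0.0492) and Blk at -0.45 (limma adjusted p = 0.0246), the latter then passing. Without peptide-injected replicate 1 Lyn was at -1.20 (limma adjusted p = 0.0279) and Gzma at -1.06 (limma adjusted p = 0.0258), and without peptide-injected replicate 2 Pcsk1 was at -0.75 (limma adjusted p = 0.0233). Lyn did not pass without peptide-injected replicate 2 (0.0782) or without deltaP replicate 1 (0.0735), 2 (0.123) or 3 (0.0909), as limma adjusted p. It also missed the threshold with arrays centred on their medians, at -0.74 (limma adjusted p = 0.0665), after quantile normalization, at -0.79 (limma adjusted p = 0.129), and over brighter probe sets alone (limma adjusted p = 0.0667).

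**Figure D3:**
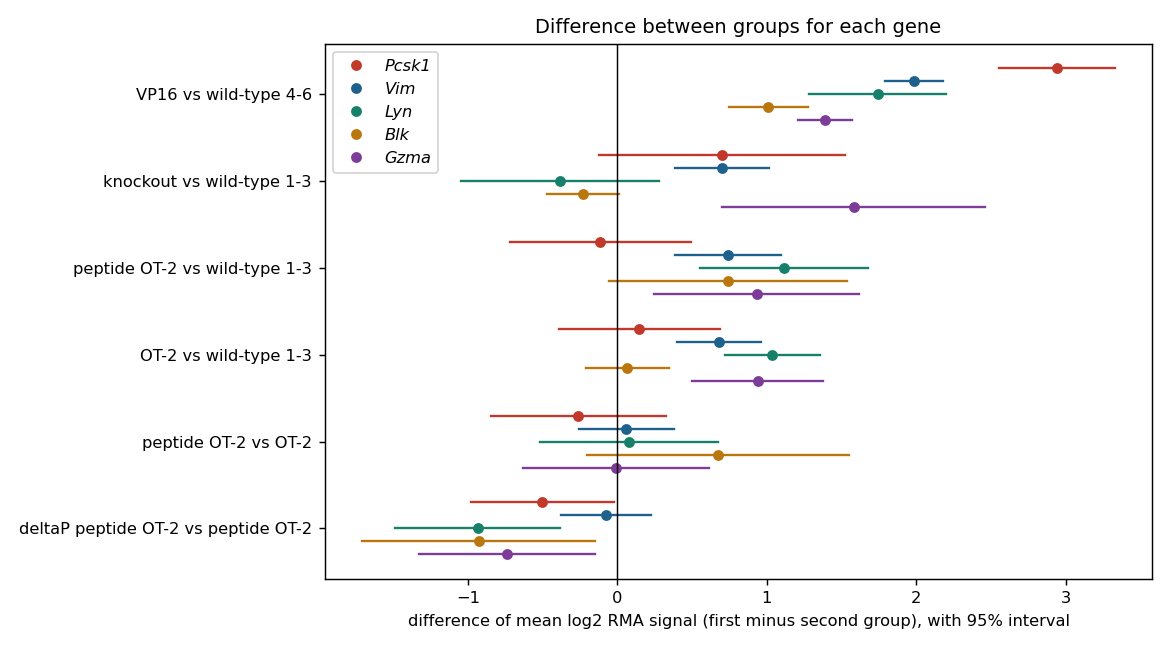
Difference of mean log2 RMA signal for the 5 genes in each of the 6 comparisons, first group minus second, with the 95% interval of the limma fit (n = 3 and 3). The VP16 intervals, shown as a description of the contrast that chose the genes, run from 0.74 for Blk to 3.33 for Pcsk1, and the knockout differences lie on both sides of 0.

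The 5 genes did not share a single pattern. Array values less the mean of the wild-type arrays of the same block were correlated over the 15 arrays of wild type, knockout, peptide-injected OT-2 and VP16, with no p since the arrays share controls, block and the choice of genes. The gene most like Lyn was App, the amyloid precursor gene, at r = 0.91. App was also the one most like Blk at 0.86, followed by Lyn itself at 0.86. Without the VP16 arrays, r between Lyn and Blk was 0.77 over 12 arrays. On those arrays both were highest on peptide-injected replicate 3, Lyn at 1.66 and Blk at 1.70, where the next for Blk was 0.27. How far r rests on that array was not tested. Next for Lyn were Cpq, a carboxypeptidase, at 0.90 and Ap1g2, a clathrin adaptor subunit, at 0.89.

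Gzma was closest to Galm, a galactose mutarotase gene, at 0.93 and to the surface genes Ly6c2 at 0.92 and Ly6c1 at 0.91. These values were as high without the VP16 arrays, at 0.93, 0.91 and 0.90, and knockout replicate 2 was the highest array for Gzma, Ly6c1, Ly6c2 and Galm. Pcsk1 was closest to Cdyl2 at 0.93, to D430041D05Rik at 0.92 and to Txlng at 0.92. Those values rested on the VP16 arrays: without them they were 0.52, 0.38 and 0.68. Vim was closest to Trdmt1 at 0.92, D430041D05Rik at 0.92 and Akr1c13 at 0.91, and without VP16 these were 0.77, 0.69 and 0.66. Trdmt1, a tRNA methyltransferase gene, is the nearest protein-coding gene on the upstream side of Vim in the annotation.

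**Figure D4:**
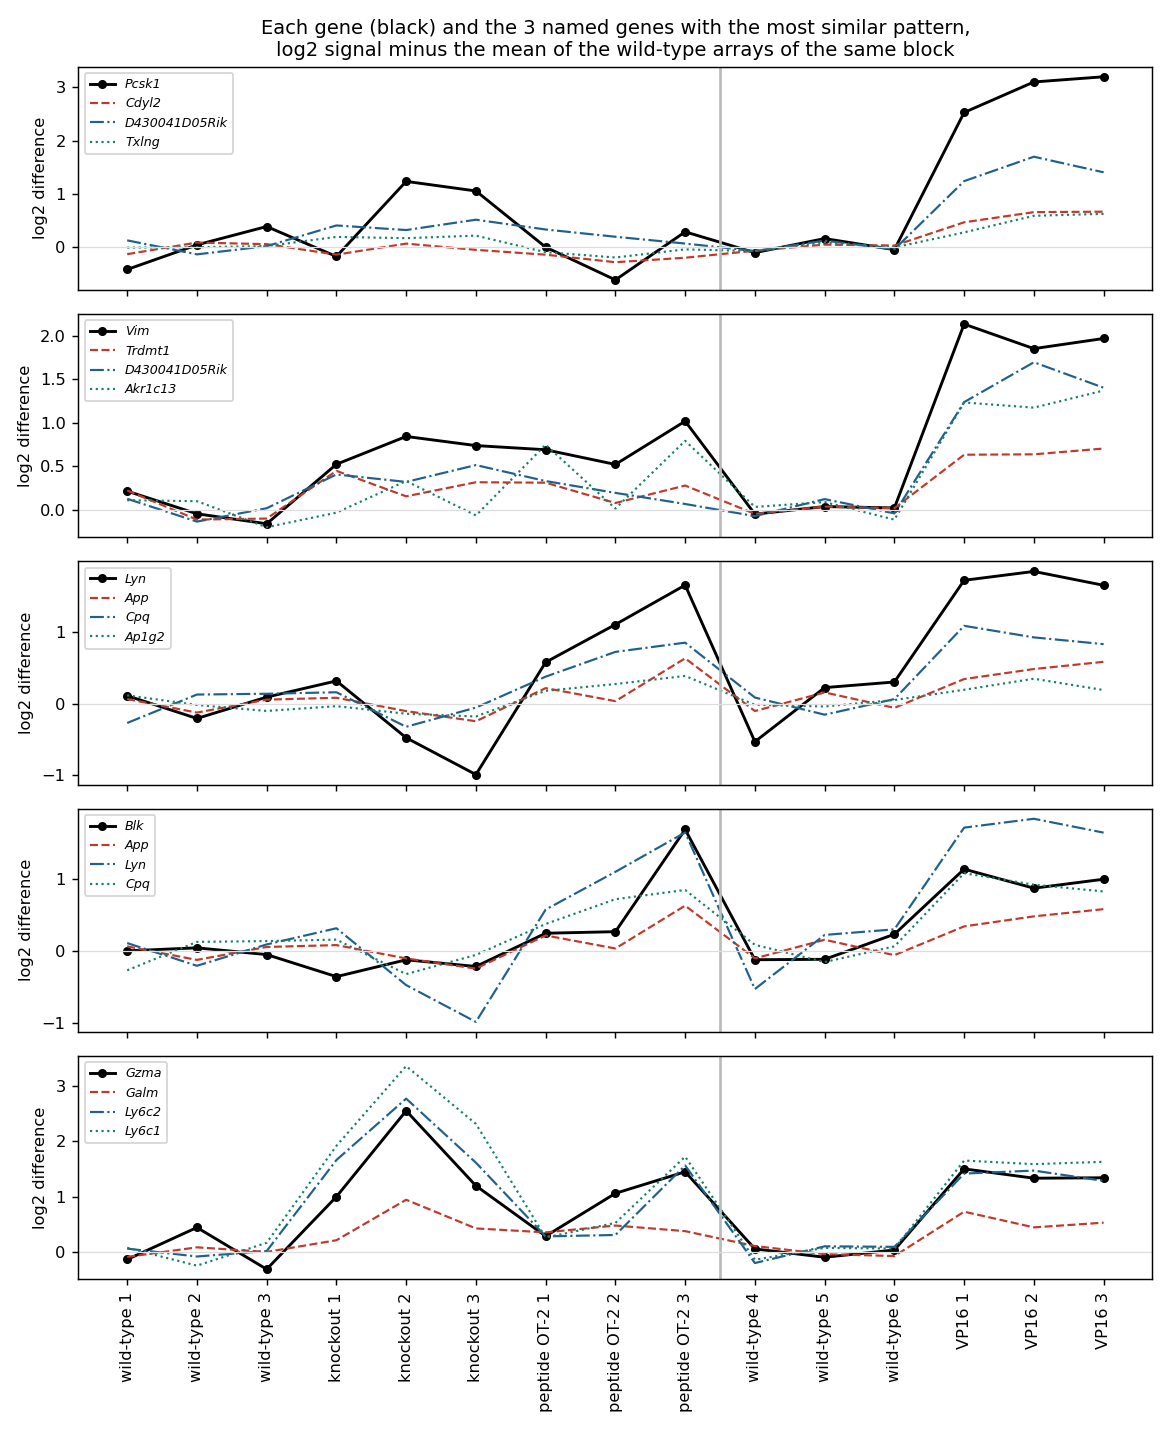
Log2 signal minus the mean of the wild-type arrays of the same block on 15 arrays, for each of the 5 genes (black) and the 3 named genes with the highest Pearson r to it; lines only join the points, and the gray line parts the blocks. Gzma peaks at knockout replicate 2 with Ly6c1 and Ly6c2, and Pcsk1 departs from its nearest genes on knockout replicates 2 and 3.

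Genes of the same families were looked at as background to the 5. Only genes in the authors' tables could be named, so each list holds genes that the authors had already picked on these samples, and a higher share of them passing than of all probe sets follows in part from that choice. In VP16, 0.692% of all probe sets passed as higher and 0.73% as lower, and in knockout 0.439% and 0.363%. Of the Src family kinases and their regulators other than Lyn and Blk, 3 of 15 listed genes were named here, Cbl, Ptpn6 and Pag1, and 0 of 3 passed in VP16 or in knockout. Their median VP16 difference was 0.03, beside 0.02 over all probe sets, with Pag1 at 0.14 and Ptpn6 at -0.08. In peptide-injected OT-2 against wild-type arrays 1 to 3, Ptpn6, the phosphatase SHP-1 that acts with Lyn on inhibitory receptors in B cells, rose by 1.22 ± 0.09 (SE; limma adjusted p = 0.000794). Cbl, a ubiquitin ligase, fell by 0.94 and Pag1, an adaptor that holds the Src inhibitor Csk, fell by 0.67, also past the threshold. Among 8 named kinases and adaptors downstream of antigen receptors, 1 rose in VP16, the exchange factor Vav3 at 0.72 ± 0.08 (SE; limma adjusted p = 0.00945). In knockout 3 of the 8 rose, namely Malt1 by 0.89, Pik3cd by 0.92 and Prkcq by 0.69.

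Beside Gzma, 3 cytotoxic granule genes were named. In VP16 none of Serpinb6b, Prf1 and Ctsc passed, with Serpinb6b, a granzyme inhibitor, at 0.32 ± 0.07 (SE; limma adjusted p = 0.0592) and Prf1, perforin, at -0.14. In knockout 1 of 3 rose, Serpinb6b by 1.37 ± 0.22 (SE; limma adjusted p = 0.0356). Of the prohormone convertases, Pcsk1 was the only 1 of 15 listed genes that could be named. Of 8 named filament and cytoskeletal linker genes other than Vim, 1 rose in VP16, Actn2, a sarcomeric alpha-actinin, by 1.71 ± 0.14 (SE; limma adjusted p = 0.00229), and 1 fell, Jup, plakoglobin, by 0.55. In knockout 1 of the 8 rose, Actn2 by 1.78, and 2 fell, Jup at -2.33 and S100a11, a calcium-binding protein gene, at -0.82. S100a11 differed by 0.04 in VP16. The median of the 8 was -0.14 in VP16. Of the 7 named genes reported as HDAC7 or MEF2 targets, 1 fell in VP16, the immediate early gene Egr1, by 0.87 ± 0.11 (SE; limma adjusted p = 0.0185), and none rose. Their median was -0.30. In knockout 3 of the 7 fell, Egr1 by 0.93, Egr2 by 1.12 and Nr4a1 by 0.83.

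Because Lyn, Blk and Gzma are also made by other cells of the thymus, markers of those cells were read on the same arrays. In a bulk sample, more cells of a type and more RNA per cell cannot be told apart. Of 22 B cell markers only Cd79b could be named. It was 9.03 to 9.35 on wild-type arrays 4 to 6 and 9.37 to 9.54 on VP16 arrays, a difference of 0.30 ± 0.10 (SE; limma adjusted p = 0.157). On peptide-injected replicate 3, the array high for Blk, it was 8.52, inside its group's range of 8.47 to 8.69. In knockout it was -0.60 from wild-type (limma adjusted p = 0.280). Of 10 gamma-delta T cell markers 3 were named beside Blk, and the sum of their log2 signals was 20.8 to 21.5 on wild-type arrays 4 to 6 and 23.4 to 23.9 on VP16 arrays. Of them, 2 rose in VP16, the scavenger receptor gene Cd163l1 by 1.29 ± 0.10 (SE; limma adjusted p = 0.00161) and Il17rb by 0.75 ± 0.13 (SE; limma adjusted p = 0.0432). They also rose in knockout, by 1.76 and 1.94, where the sum was 24.6 to 25.4 beside 20.4 to 21.2. Trgv3, a T cell receptor gamma segment that was not on this list, was 1.72 higher in VP16 than in wild-type arrays 4 to 6.

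Of 23 markers of natural killer and innate-like T cells, Il18r1 and Id2 were named, and their sum was 12.0 to 12.6 on wild-type arrays 4 to 6 and 12.33 to 12.997 on VP16 arrays. They went opposite ways. Il18r1 rose in VP16 by 1.17 ± 0.14 (SE; limma adjusted p = 0.0157) and in knockout by 1.34 ± 0.16 (SE; limma adjusted p = 0.00895). Id2 differed by -0.80 ± 0.16 (SE; limma adjusted p = 0.0556) in VP16 and by -0.64 ± 0.17 (SE; limma adjusted p = 0.249) in knockout. Of 21 myeloid markers, Itgam and Lyz1 were named. They did not pass in VP16, with a sum of 12.0 to 12.9 on wild-type arrays 4 to 6 and 13.1 to 14.4 on VP16 arrays. In knockout Itgam rose by 0.89 (limma adjusted p = 0.00767). Of 14 named markers of mature single-positive T cells, 7 rose and 1 fell in VP16 (0.692% and 0.73% of all probe sets did), and their sum was 117.2 to 120.3 on wild-type arrays 4 to 6 and 126 to 129 on VP16 arrays. The smallest adjusted p in that list belonged to Ly6c1, which rose by 1.62, Ms4a6b by 0.92 and Ly6c2 by 1.39. Of 7 named double-negative markers other than Gzma, 2 rose in VP16, Il2ra by 1.18 and Dtx1 by 0.69, and the sums were 49.4 to 51.8 and 51.4 to 53.4. Of 10 named double-positive markers, 1 rose in VP16, Aqp11 by 0.54, and the sums were 113 to 114 and 114 to 115. Pdgfrb, the 1 named stromal marker, differed by 0.48 (limma adjusted p = 0.0652), and no erythroid marker was named.

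Stage markers passed in other comparisons too. In knockout 6 of the 14 single-positive markers rose and none fell, 1 of 7 double-negative markers fell and 2 of 10 double-positive markers fell, where 0.439% of all probe sets passed as higher and 0.363% as lower. In peptide-injected OT-2 against wild-type arrays 1 to 3, where Vim and Lyn rose, 8 of 14 single-positive and 4 of 7 double-negative markers rose and 8 of 10 double-positive markers fell, with no call in the other direction (3.49% of all probe sets passed as higher and 2.28% as lower). The sums there were 105.3 to 107.5 on wild-type and 116.2 to 127.0 on peptide-injected arrays for single-positive markers, 46.7 to 48.7 and 53.6 to 58.4 for double-negative markers, and 109.0 to 110.6 and 99.0 to 102.2 for double-positive markers. In untreated OT-2 against the same wild-type arrays, where Lyn, Gzma and Vim rose, 9 of 14 single-positive and 6 of 7 double-negative markers rose and 5 of 10 double-positive markers fell, beside 14.8% of all probe sets passing as higher and 12.2% as lower. With deltaP, where Lyn fell, 4 of 14 single-positive markers fell and 1 rose, 2 of 7 double-negative markers fell and 2 of 10 double-positive markers rose, beside 12.9% of all probe sets passing as lower and 2.12% as higher. The part of other cells or of maturation in the values of the 5 genes was not tested.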

How the data were processed

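The deposited table holds log2 signals per probe set that the authors made with RMA. Its blocks of columns do not match all of the design text's comparisons. Peptide-injected OT-2 against OT-2 and OT-2 against wild type both cross blocks. Affymetrix Expression Console is named in the submitters' processing notes. The deposited tables of changed genes give fold changes as a ratio, a score and a q value in percent, from the SAM package per the readme deposited with them. The sources used here give no versions. Of 35556 rows, 6612 control rows and 23 second probe sets of a gene were left out and 28921 were tested. Names came from the authors' tables alone, by accession or symbol looked up in RefSeq (GRCm38.p6), for 2121 rows.

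The 5 genes, the 15 gene lists and the comparisons were chosen with earlier results of these data known. Each comparison was fitted on its own arrays with limma 3.58.1 (lmFit and eBayes, R 4.3.3), two-sided, adjusted by Benjamini-Hochberg over all 28921 probe sets with a threshold of 0.05, and the method was tested on simulated data. The 4 blocks of columns were kept as deposited. Wild-type arrays 4 to 6 were used in choosing the genes and were therefore left out of the OT-2 comparison, where the design text uses all 6. Named besides the 5 genes and Hdac7 were, by rule, the 3 genes most correlated with each, neighbours in the VP16 ranking, and from each list up to 3 members that passed with the smallest adjusted p, or up to 2 with the largest change. Prf1, Cbl and other list members that complete a count, and the double-positive genes Rag1, Cd4 and Cd8b1, were added once their values were known. As a check of pairing, the deviations of same-numbered arrays from their group means were correlated over probe sets. Knockout and wild-type arrays of the same number correlated at 0.42, 0.26 and 0.25, all above the limit of 0.1, and were treated as paired in an alternative. In the other comparisons not every pair passed that limit, and VP16 and wild-type 4 to 6 share no number. Tables were made in python 3.11.15 with pandas 2.3.3, numpy 2.4.6 and matplotlib 3.10.9. Alternatives were quantile normalization of all arrays, centring on medians, only probe sets above the median mean, the mean of a gene's probe sets, 1 fit over all groups, the replicate block, all 6 wild-type arrays as control, and leaving out each array.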

Additional observations from a re-analysis of the deposited data

Results flagged for a closer look

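Blk stood on opposite sides of its wild-type controls in the HDAC7 lines. Every knockout array was below every one of wild-type arrays 1 to 3, as for 6.58% of probe sets. That difference, -0.23, did not pass (95% interval -0.47 to 0.01, limma adjusted p = 0.752). Every VP16 array was above every one of wild-type arrays 4 to 6, as for 11.9% of probe sets, with a difference of 1.01. The difference between the contrasts was not tested, and the VP16 direction was fixed by the choice of genes. The wild-type sets lay apart for Blk by -0.67 (arrays 4 to 6 minus 1 to 3), and all 3 knockout arrays were above wild-type arrays 4 to 6.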

How the results depend on the processing

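The count of the 5 genes that passed depended on the processing in 4 comparisons. The setting of brighter probe sets does not test a gene whose mean is below the median. In knockout it left out Lyn and Blk, so its counts can be over fewer than 5 genes. For knockout, where none passed, it was 1 after quantile normalization, 1 over brighter probe sets alone, 2 with all groups in 1 fit and 1 with the replicate block, in which numbers pair the arrays, and 0 in all 6 fits without 1 array. The probe sets passing there numbered 232, with 788 in the fit of all groups and 107 to 155 without 1 array. For peptide-injected OT-2 against wild-type 1 to 3, 2 genes passed, with 1 over brighter probe sets, 4 with all groups in 1 fit, 1 with the replicate block, 0 with all 6 wild-type arrays and 0 to 1 without 1 array. The probe sets passing numbered 1667, with 4981 for all groups in 1 fit, 944 for all 6 wild-type arrays and 430 to 1381 without 1 array. For deltaP, 1 gene passed, with 0 after quantile normalization, 0 with arrays centred on medians, 0 over brighter probe sets, 2 with all groups in 1 fit, 2 with the replicate block and 0 to 2 without 1 array. Its probe sets numbered 4348, with 843, 584, 6604 and 2801 under quantile normalization, brighter probe sets, all groups and the replicate block, and 1091 to 3639 without 1 array. For OT-2 against wild-type 1 to 3, 3 genes passed, with 0 under all 6 wild-type arrays and 2 to 3 without 1 array, and the 7805 probe sets became 667 and 3277 to 7815. For peptide-injected OT-2 against OT-2, no gene passed in these fits without 1 array (0 to 0), and the 5629 probe sets became 3748 after quantile normalization, 3187 over brighter probe sets, 3328 with the replicate block and 745 to 4651 without 1 array. In VP16, 411 probe sets passed, with 188 after quantile normalization, 1724 over brighter probe sets, 661 with all groups in 1 fit, 34 with all 6 wild-type arrays and 35 to 790 without 1 array. The median VP16 difference of the 5 genes was 2.20 against all 6 wild-type arrays and 1.48 to 1.89 without 1 array. Outside the knockout comparison the samples share only a number; there the block took the Vim call after peptide (0.0504) and gave a call for Gzma in deltaP (0.0395), as limma adjusted p.

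Signs turned 15 times, each for a gene that did not pass. Blk in knockout was at 0.10 with all 6 wild-type arrays. In peptide-injected OT-2 against OT-2, Vim was at -5.53e-05 with arrays centred on medians and Gzma at 0.070 after quantile normalization, and in deltaP Vim was at 0.12 with centred arrays. The others came from leaving out 1 array, over which the values ran from -0.32 to 0.14 for Pcsk1 in peptide-injected OT-2 against wild-type, from -0.064 to 0.34 for Pcsk1 and -0.020 to 0.19 for Blk in OT-2 against wild-type, from -0.077 to 0.17 for Vim, -0.19 to 0.34 for Lyn and -0.27 to 0.31 for Gzma in peptide-injected OT-2 against OT-2, and from -0.19 to 0.061 for Vim in deltaP. The cause was not tested. Of the other values for the 5 genes, 313 kept direction and side of the threshold or moved by less than 1 SD, 12 came to pass, 24 no longer passed and 4 VP16 differences moved by more than 1 SD between replicates. The 3 arrays of a group limit what can be called, and most probe sets could not be named.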
